A study of Mus musculus with 6 samples.

Results

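The MHC class II genes described here were the 9 genes with the symbols H2-Aa, H2-Ab1, H2-Eb1, H2-DMa, H2-DMb1, Cd74, Ciita, H2-Oa and H2-Ob, taken by symbol from the 31053 genes of the count tables. All 9 had molecules in the cells analysed. The libraries came from C57BL6 mice and were prepared by 10x Genomics droplet sequencing, which marks each captured mRNA with a unique molecular identifier (UMI). There were 4 cortical surface-associated libraries, with brain as the labelled tissue, and 2 bone-associated libraries, with dura or skull as the labelled tissue, and the study set these preparations side by side to describe the cells of the brain surface. Every library pooled several mice, no treatment or transgene was used, the mice were not perfused, so that blood cells may be included, and viable nucleated cells were collected by flow cytometry. For the dissociation, the study's methods name collagenase D and dispase II, while the labels describe papain and ventricular tissue, so the enzyme that was used is uncertain.

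Class II molecules carry peptides from endocytosed proteins to the cell surface, where CD4 T cells read them. The alpha and beta chains assemble in the endoplasmic reticulum with the invariant chain, Cd74, which directs them to endosomes, where cathepsins cut it down to a fragment in the peptide groove. H2-DM then exchanges this fragment for a peptide, and H2-O, found mostly in B cells, restrains H2-DM. Ciita is the coactivator without which class II genes are barely transcribed. It binds no DNA itself and joins RFX, CREB and NF-Y proteins on the X and Y boxes just before each gene's start. Dendritic cells, B cells and macrophages are the cells best known to express these genes. C57BL/6 mice lack a functional I-E alpha chain, so H2-Eb1 is transcribed there without a partner at the surface.

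Of the 9 genes, 7 lie together on chromosome 17 of GRCm38, the build of the files. In order they are H2-Oa (34092340 to 34095234), H2-DMa (34119541 to 34139101), H2-DMb1 (34153072 to 34160230), H2-Ob (34238903 to 34254414), H2-Ab1 (34257689 to 34269419), H2-Aa (34282744 to 34287823) and H2-Eb1 (34305867 to 34316674). All are on the plus strand except H2-Aa. Ciita lies on chromosome 16 (10480059 to 10528418), and Cd74 lies on a further chromosome. H2-DMb1 has a near-identical neighbour, H2-DMb2 (34143307 to 34151555 on chromosome 17), and reads could be split between them, so the values of H2-DMb1 are uncertain to that extent.

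The stretch before the start of 4 genes is shown because the boxes at which Ciita acts were searched for there. The genes are 2 chains that were highest in dendritic cells and the 2 H2-O chains, which were highest in B cells. The sequences come from RefSeq (GRCm38.p6) and run 5′ to 3′ in the direction of the gene. They cover bases 150 to 39 before the start annotated in RefSeq, and capitals mark matches to the searched motifs. For H2-Oa and H2-Ob the RefSeq start lies downstream of the first base of the gene given above. The H2-Oa stretch therefore ends at that first base. They lie at chr17:34287862-34287973 (minus strand, H2-Aa), chr17:34305717-34305828 (plus strand, H2-Eb1), chr17:34092229-34092340 (plus strand, H2-Oa) and chr17:34238755-34238866 (plus strand, H2-Ob).
H2-Aa: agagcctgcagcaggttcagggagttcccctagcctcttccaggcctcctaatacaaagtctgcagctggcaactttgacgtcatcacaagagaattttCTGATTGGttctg
H2-Eb1: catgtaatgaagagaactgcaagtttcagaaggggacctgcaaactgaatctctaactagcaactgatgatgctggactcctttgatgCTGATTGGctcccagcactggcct
H2-Oa: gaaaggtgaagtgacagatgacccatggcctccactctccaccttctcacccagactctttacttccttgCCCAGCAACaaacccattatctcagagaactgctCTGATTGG
H2-Ob: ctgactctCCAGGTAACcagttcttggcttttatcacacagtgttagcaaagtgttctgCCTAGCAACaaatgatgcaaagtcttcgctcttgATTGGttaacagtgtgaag

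Motifs were searched on both strands of the 250 bases before the RefSeq start of each gene, from which the distances below are counted. The Y box letters CTGATTGG stood 51 bases before the start of H2-Aa, 62 before that of H2-Eb1 and 46 before that of H2-Oa, and occurred in 3 of the 7 promoter entries of the members and in 3.83% of 32851 promoters. Its inner part ATTGG, which lies within CTGATTGG, occurred in 6 of the 7 entries and in 33.8% of all promoters. It stood 57 bases before the start of H2-Ob and 61 before that of H2-DMb1. The X1 box letters CCTNGCAAC occurred only in the H2-Ob entry among the 7 (91 bases before the start) and in 1.49% of all promoters. The looser form CCNNGNAAC, which includes CCTNGCAAC, occurred in 4 of the 7 entries (both H2-O genes, H2-DMb1 and 1 of 2 entries of H2-DMa) and in 12.6% of all promoters. These are matches of letters only. H2-Ab1, Cd74 and Ciita had no promoter entry.

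After filtering, 8680 cells of 17560 barcodes remained, 739 to 2452 per library, with a median of 5453 to 9556 UMIs per cell. The deposited libraries held 8408685 to 56169736 UMIs. Cortical surface libraries 3 and 4 stood apart, with 84.6% and 71.9% of their UMIs on hemoglobin genes against at most 0.52% in the others, and at most 2 barcodes were shared by any pair of libraries. Cells were clustered without the 9 members and without the other class II chains, and clusters were named from marker genes, so each name means "-like". Levels below are CPM, the UMIs of a gene summed over the cells of a class in a library and scaled to 1000000 UMIs in all, and a class was used in a library with at least 10 cells. The library is the replicate. Since mice were pooled, p-values measure the spread between pools.

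Few cells held most class II RNA. On the cortical surface, dendritic cells were 3.03% of the cells and held 37.5% of the Cd74 UMIs and 40.2% of the Ciita UMIs, while B cells, 6.96% of the cells, held 51.9% of the H2-Ob UMIs. In the bone-associated libraries dendritic cells, 5.99% of the cells, held 61.3% of the Cd74 UMIs, and B cells, 10.1% of the cells, held 57.8% of the H2-Ob UMIs. Cortical surface cells left without a class name were 16.3% of the cells and held 45.8% of the Cd74 UMIs, and the main cluster among them is described further on. Over all 8680 cells, a Cd74 UMI was found in 30.5%, an H2-DMa UMI in 26.9%, an H2-Ab1 UMI in 23.2% and a Ciita UMI in 7.52%.

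**Figure D1:**
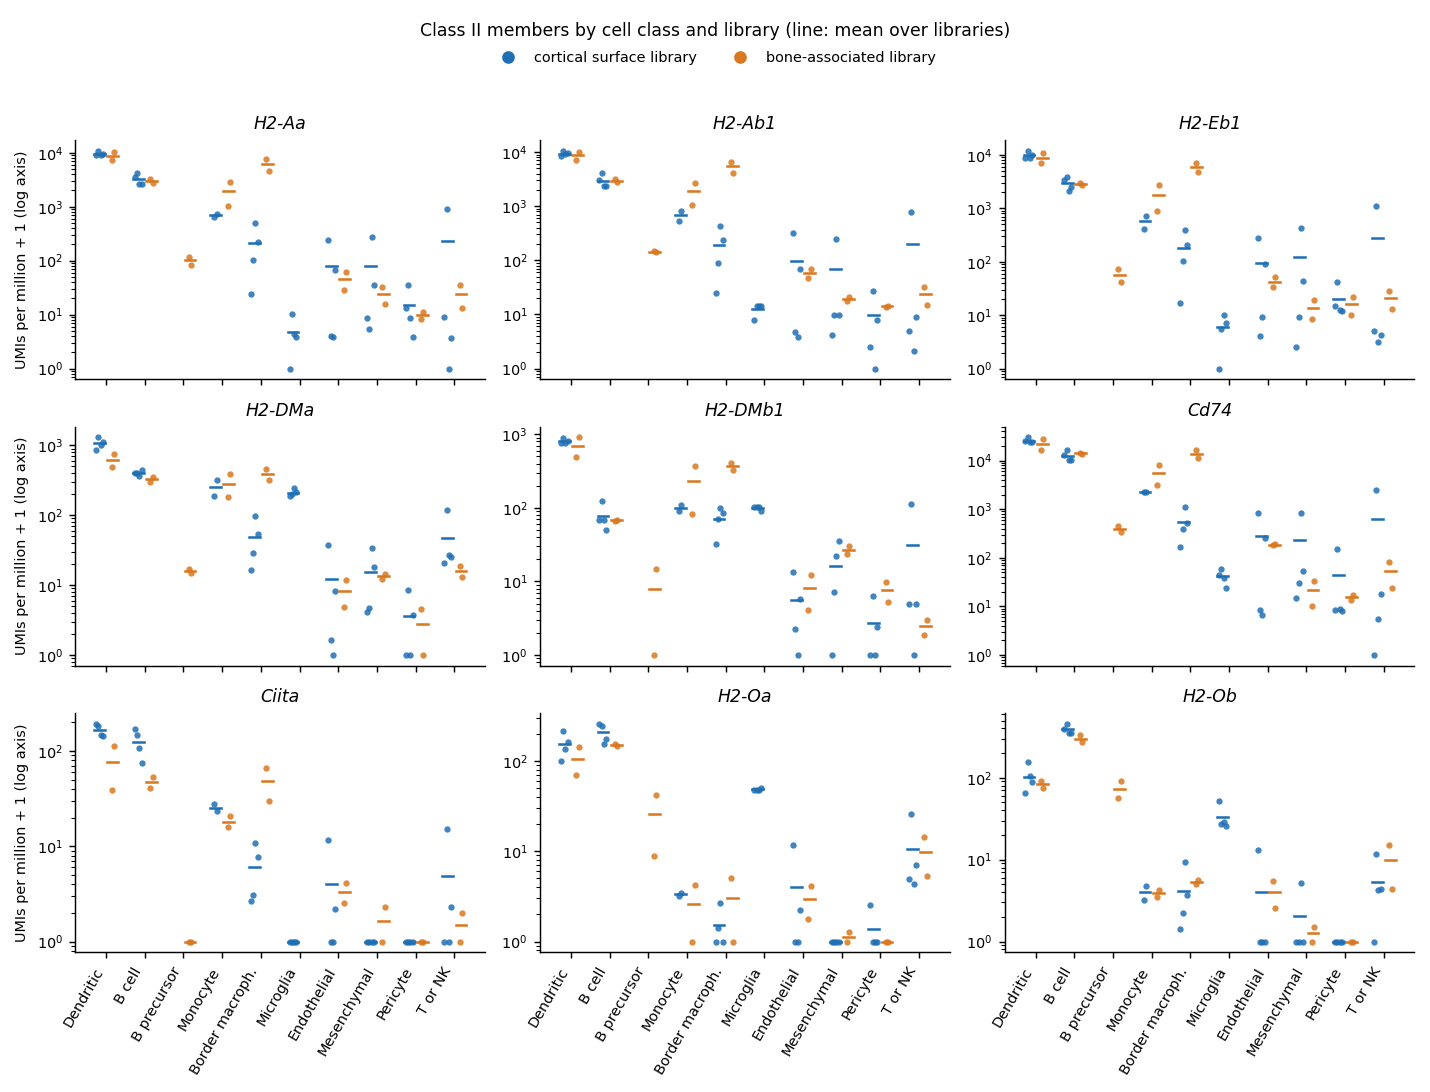
Level of each member in 10 cell classes, as CPM plus 1 on a log axis, with 1 point per library (blue, cortical surface; orange, bone-associated) and a line at the mean over libraries. Cd74 stood between 16265 and 29950 CPM in dendritic cells of all 6 libraries, while border macrophages were at 169 to 1108 CPM in the 4 cortical surface libraries and at 11121 and 16737 CPM in the bone-associated ones.

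Dendritic cells had the highest mean level of H2-Aa, Cd74, Ciita, H2-DMa and H2-DMb1 among the named classes in both preparations, and B cells that of H2-Oa and H2-Ob. On the cortical surface the order of the myeloid and B cell classes for Cd74 was dendritic cells (25724 ± 2858 CPM, SD, n = 4), B cells (12616 ± 2874, n = 4), monocytes (2280 ± 13.9, n = 2) and border macrophages (542 ± 402, n = 4), with microglia at 40.7 ± 14.5 (n = 4). T or NK cells, which lack class II in mice and were taken as the background, had 0, 2519, 4.41 and 16.6 CPM in libraries 1 to 4. In library 2, 1 of 26 T or NK cells held 99.8% of the UMIs of H2-Aa, H2-Ab1, H2-Eb1 and Cd74 found in that class. For H2-DMa and H2-Ob this background was uneven. An H2-DMa UMI was found in 19.5% of 1 cortical surface T or NK cluster, and an H2-Ob UMI in 12.5% of 1 bone-associated one. A bone-associated pericyte cluster had no UMI of either gene. In the bone-associated libraries the order was dendritic cells (21701 ± 7688, n = 2), B cells (14209 ± 390), border macrophages (13929 ± 3971) and monocytes (5554 ± 3377). Dendritic cells were above B cells in both libraries, at 16265 and 27137 against 14485 and 13933 CPM. Border macrophages, at 16737 and 11121 CPM, were above B cells in library 1 and below them in library 2. T or NK cells were at 52.7 ± 41.3 CPM. Monocytes of bone-associated library 2 (7942 CPM) had more Cd74 than those of library 1 (3166 CPM).

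The alpha and beta chains form the peptide-binding groove. In dendritic cells H2-Aa was 9038, 10812, 9022 and 9378 CPM in cortical surface libraries 1 to 4 and 7426 and 10142 CPM in the bone-associated ones. In B cells it was 3613, 4183, 2692 and 2625 CPM and then 3304 and 2756 CPM, so that the lowest dendritic cell value lay above the highest B cell value. H2-Ab1, the partner of H2-Aa, ran from 7161 to 10490 CPM in dendritic cells and from 2364 to 4023 CPM in B cells, and H2-Eb1 from 6946 to 11824 and from 2136 to 3790 CPM.

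For these 3 chains dendritic cells stood above B cells in each of the 6 libraries. The log2 fold change was 1.71 ± 0.11 (SE) for H2-Aa, 1.80 ± 0.11 for H2-Ab1 and 1.86 ± 0.12 for H2-Eb1. The call rule asked for a p under 0.05 after Benjamini-Hochberg adjustment (edgeR's quasi-likelihood test, library as block) together with a log2 fold change of 1.3 or more in either direction. By that rule 5 of the 9 members were higher in dendritic than in B cells (16.4% of all 7606 genes tested were) and 1 was lower (6.34% of all). The median log2 fold change was 1.37 over the members and 0.05 over all genes tested.

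The peptide exchange factor H2-DM differed between these classes too. H2-DMa was 863, 1299, 1027 and 1130 CPM in dendritic cells of the cortical surface and 491 and 743 CPM in the bone-associated ones, against 301 to 447 CPM in B cells of the 6 libraries (log2 fold change 1.37 ± 0.14). This is close to the threshold, and the value fell to 1.24 without cortical surface library 2 and 1.27 without library 3. H2-DMb1 was 759, 898, 768 and 820 CPM and then 492 and 906 CPM in dendritic cells, and 67.1, 123, 67.5 and 48.9 CPM and then 66.3 and 67.3 CPM in B cells (3.63 ± 0.18). The near-identical H2-DMb2 had the opposite order, with 317 to 601 CPM in B cells and 55.1 to 200 CPM in dendritic cells.

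Cd74 and Ciita passed the p-value but not the fold threshold. Cd74 was 24878, 29950, 23702 and 24367 CPM in cortical surface dendritic cells and 16265 and 27137 CPM in bone-associated ones. B cells had 13279, 16411, 10425 and 10350 CPM and then 14485 and 13933 CPM, and the ranges overlapped (log2 fold change 1.04 ± 0.13). Ciita was 192, 182, 147 and 143 CPM in dendritic cells and 168, 147, 106 and 73.4 CPM in B cells of the cortical surface, and 38.4 and 113 CPM against 40.2 and 53.0 CPM in the bone-associated libraries (0.72 ± 0.19, adjusted p = 0.0031 in edgeR's test). The classes overlapped for this gene, and in bone-associated library 1 dendritic cells were not the higher.

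The H2-O chains were the exception. H2-Ob was 392, 454, 355 and 351 CPM in B cells of the cortical surface and 330 and 269 CPM in those of the bone-associated libraries. In dendritic cells it was 64.0, 154, 103 and 86.8 CPM and then 91.0 and 74.8 CPM, below every B cell value (log2 fold change -1.76 ± 0.17). H2-Oa, its partner chain, was 257, 245, 155 and 176 CPM and then 155 and 145 CPM in B cells. Dendritic cells had 99.9, 215, 134 and 162 CPM and then 68.5 and 142 CPM, lower in 6 of 6 libraries but with overlapping ranges (-0.30 ± 0.19, adjusted p = 0.208 in edgeR's test).

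The number of H2-Oa and H2-Ob UMIs per 100 H2-DMa and H2-DMb1 UMIs put the classes on 1 scale. It was 138, 133, 118 and 106 in cortical surface B cells and 132 and 98.1 in bone-associated ones, and 10.1, 16.8, 13.2, 12.8, 16.2 and 13.1 in dendritic cells in the same order of libraries. The lowest B cell value was thus several times the highest dendritic cell value. With H2-DMb2 counted in H2-DM, which was tried after seeing the data, B cells fell to 67.3 ± 5.34 (n = 4) and 59.4 ± 10.7 (n = 2) and dendritic cells stayed at 12 ± 2.54 and 13.6 ± 2.52. Without barcodes holding at least 3 UMIs over C1qa, C1qb, Lyz2 and Cd79a, also tried after seeing the data, only 18, 21 and 38 dendritic cells remained in cortical surface library 4 and bone-associated libraries 1 and 2, with 26.2, 26.9 and 18.6. That filter left too few microglia for a ratio, so these values can only be set beside unfiltered microglia. The order of dendritic cells and microglia is thus uncertain. Microglia had 26.1 ± 5.22 (n = 4), border macrophages 2.42 ± 1.86 (n = 4) and 0.83 ± 0.17 (n = 2), and monocytes 0.86 to 1.6 in 4 libraries.

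**Figure D2:**
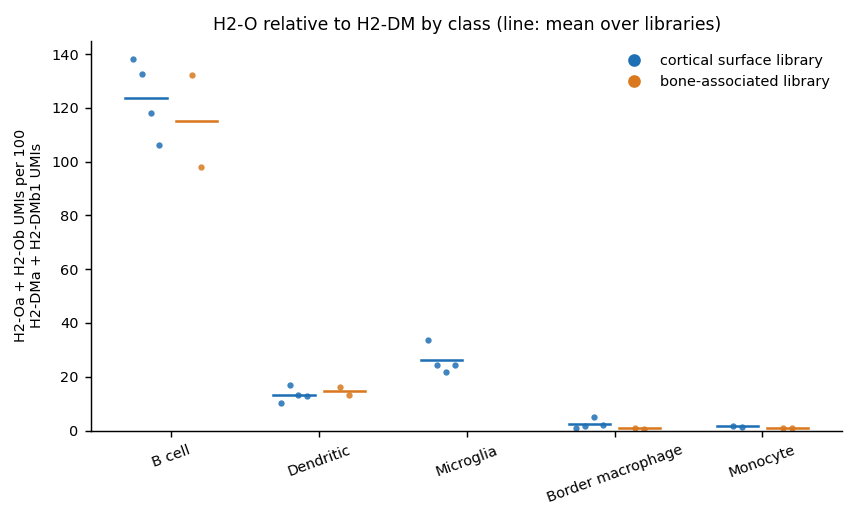
UMIs of H2-Oa plus H2-Ob per 100 UMIs of H2-DMa plus H2-DMb1 in 5 classes, on an axis from 0, with 1 point per library (blue, cortical surface; orange, bone-associated) and a line at the mean. B cells lay at 98.1 or more in all 6 libraries, microglia at 21.8 to 33.7 and dendritic cells at 10.1 to 16.8, with border macrophages and monocytes near 0.

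Within B cells each of the 9 members had a higher mean level in the cluster led by Ighd and Fcer2a than in the other main cluster, by differing amounts. The share of all genes with this order is not given. In the cortical surface libraries, a cluster led by Ighd and Fcer2a, genes of mature naive B cells, had 4239 ± 519 CPM of H2-Aa (n = 3) and 497 ± 22.4 CPM of H2-Ob. A cluster led by Vpreb3 and Spib had 903 ± 111 CPM of H2-Aa (n = 2) and 170 ± 4.8 CPM of H2-Ob. The bone-associated libraries also held a higher and a lower cluster, with 5397 ± 424 CPM of H2-Aa in an Ighd and Fcer2a cluster and 1797 ± 74.9 CPM in a cluster led by Ms4a1. Ciita was 158 ± 61.1 against 42.4 ± 24.1 CPM on the cortical surface and 63.1 ± 12.7 against 36.7 ± 22.4 CPM in the bone-associated libraries. There the library values were close, at 54.1 and 72.0 against 20.9 and 52.6 CPM. Cd74 differed less, at 12902 ± 1466 against 8074 ± 720 CPM and 15999 ± 263 against 13287 ± 235 CPM. These cluster levels are descriptions, with no test.

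B precursors, found in the bone-associated libraries only (12 and 26 cells), had far less. Cd74 was 442 and 347 CPM there against 14485 and 13933 CPM in the B cells of the same libraries (log2 fold change 5.49 ± 0.44), and H2-Aa 119 and 83.2 CPM against 3304 and 2756 CPM (5.23 ± 0.47). The fold changes of H2-Ab1 (4.67 ± 0.45), H2-Eb1 (5.98 ± 0.50) and H2-DMa (4.76 ± 0.63) were of like size. H2-Ob was nearer, at 55.3 and 90.1 CPM against 330 and 269 CPM (2.34 ± 0.48), and H2-Oa was 7.9 and 41.6 CPM against 155 and 145 CPM (2.88 ± 0.61). No Ciita UMI was found in the 38 precursors, which allows up to 7.89% of cells with a UMI, not of cells expressing the gene, and puts B cells at least 4.25-fold higher, with a floor of 3 counts over the group. H2-DMb1 had 2 UMIs in precursors, and its pooled level was 9.05-fold higher in B cells (95% counting interval 2.45 to 75.5).

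All 9 members were called higher in B cells than in precursors, where 5.10% of 6251 genes tested were (4.19% were lower), and the median was 4.76 over the members and 0.02 over all genes. A gene entered the test with a UMI in over 10% of the cells of either class. Ciita and H2-DMb1 did so only through B cells (18.9% and 27.9% of cells against 0 and 5.26%). Their direction was thus nearly fixed by this filter. With every cell thinned to 1500 UMIs, 5 members were called, and DESeq2 called 7. Of the 46 further genes of the class II pathway found in the files (other class II chains, transcription factors and interferon gamma signalling, proteolysis and trafficking, costimulation and class I presentation), 39 were tested, 8 were higher in B cells and none was lower. Cathepsin S (Ctss), which trims the invariant chain, was 2.75 ± 0.49 higher on the log2 scale. H2-Eb2, March1 and Cd274 had no UMI in the precursors.

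Between dendritic and B cells, 41 of the 46 pathway genes were tested, with 8 higher in dendritic cells and 2 lower. Of all 7606 genes tested, 16.4% were higher in dendritic cells and 6.34% lower. The costimulatory ligand Cd80 was higher (log2 fold change 5.08 ± 0.51), as were the tetraspanin Cd63 (4.66 ± 0.53), cathepsin B (Ctsb, 2.41 ± 0.18) and the interferon gamma receptor chain Ifngr1 (1.98 ± 0.19). Spib, a transcription factor of B cells and plasmacytoid dendritic cells, was lower (-4.72 ± 0.27), and so was the further beta chain H2-Eb2 (-2.34 ± 0.53).

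Border macrophages, which live in the meninges and around vessels and were named from 12 markers such as Mrc1, Lyve1 and Pf4, had lower levels of H2-Aa, Cd74 and Ciita on the cortical surface than in the bone-associated libraries. H2-Aa was 23.2, 100, 494 and 218 CPM in cortical surface libraries 1 to 4 (189, 214, 135 and 170 cells) and 7814 and 4516 CPM in the bone-associated ones (17 and 98 cells). Cd74 was 169, 384, 1108 and 509 CPM against 16737 and 11121 CPM, and Ciita 1.69, 2.04, 9.94 and 6.71 CPM against 65.2 and 28.7 CPM. The preparations did not overlap for these genes. With few libraries on each side such separation can arise easily, and its share over all genes is not given. The class also differed in make-up: cells with and without a Lyve1 UMI were 165 and 24, 191 and 23, 82 and 53, and 105 and 65 in cortical surface libraries 1 to 4, but 3 and 14, and 22 and 76 in the bone-associated ones. The study names dural macrophages separately, with Clec4n, also a marker used here, among their markers. It reports leptomeningeal macrophages as transcriptionally distinct from dural ones. The class may thus hold different macrophage populations in the preparations. The part of these differences in make-up in the class II levels was not tested.

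H2-DM followed the same order. H2-DMa was 15.6, 27.4, 96.1 and 53.7 CPM on the cortical surface and 452 and 321 CPM in the bone-associated libraries, and H2-DMb1 was 31.3, 69.5, 97.7 and 83.2 CPM against 403 and 331 CPM. H2-Oa was 0 to 4.07 CPM over the 6 libraries, against 3.31 to 24.6 CPM in T or NK cells, and H2-Ob was 0.42 to 8.28 CPM, against 0 to 14.2 CPM. A Cd74 UMI was found in 33.9% of the 708 cortical surface cells (95% exact interval 30.4 to 37.5) and in 87.0% of the 115 bone-associated ones (79.4 to 92.5), and in 13.3% and 79.6% when each cell was thinned to 1500 UMIs, which left out 76 and 2 shallower cells. T or NK cells had a Cd74 UMI in 5.69% of cortical surface and 10.1% of bone-associated cells (1.37% and 2.15% thinned). Intervals cover counting error only.

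In edgeR's test of 4 against 2 libraries, Cd74 was lower in cortical surface border macrophages by a log2 fold change of -4.78 ± 0.83 (adjusted p = 0.0393), H2-DMb1 by -2.53 ± 0.41 (adjusted p = 0.00789) and Ciita by -3.61 ± 0.56 (adjusted p = 0.00109). H2-Aa (-4.99 ± 1.27), H2-Ab1 (-4.93 ± 1.22), H2-Eb1 (-5.15 ± 1.28) and H2-DMa (-3.25 ± 0.76) had larger or similar differences with larger spreads, and their adjusted p lay between 0.0764 and 0.102. Thus 3 of the 7 members tested were lower, where 4.54% of 7732 genes were, and none was higher, where 1.69% were. Ciita passed the filter of a UMI in over 10% of cells only through bone-associated cells (20.9% against 1.55%), as did H2-Aa, H2-Ab1 and H2-Eb1. The direction of these members was thus nearly fixed by the filter. The median was -4.78 over the members and 0.03 over all genes. DESeq2 called all 7 lower. Without bone-associated library 1 or library 2 only Ciita was called. Ciita and H2-DMb1 were called without cortical surface library 2 or library 4, where the call of Cd74 was lost (adjusted p 0.11 and 0.121), and the number called rose to 5 without library 1.

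The difference depended on which clusters were counted as border macrophages. A cortical surface cluster of 301 cells (27, 41, 94 and 139 in libraries 1 to 4), led by Cxcl14, Clec4b1, Slamf9, Klra2 and Clec12a, stayed unnamed because fewer than 3 markers of any class led it. Its Cd74 level was 29091, 31076, 24915 and 25963 CPM, overlapping that of dendritic cells, and its H2-Aa level 12548, 12658, 11204 and 10944 CPM, above the 7426 to 10812 CPM of dendritic cells. Cd74 was found in 96.3% to 100% of its cells per library. H2-Oa, by contrast, was 0, 6.2, 15.9 and 7.8 CPM, below every dendritic cell value.

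Its markers were mixed. The 12 border macrophage markers summed to 1527 to 2111 CPM in the cluster, 17975 to 20156 CPM in cortical surface border macrophages and 9040 to 10794 CPM in bone-associated ones. The 16 dendritic cell markers summed to 544 to 1085 CPM, and 2 of them were found in at least 20% of the cluster's cells. Their sum was 3559 to 4458 CPM in cortical surface dendritic cells and 949 to 1028 CPM in border macrophages there. Of the border macrophage markers, 6 of 12 were found in at least 20% of the cells, among them Mrc1 in 83.7%, while Cd209f was at 0 and Lyve1 was in 0.33%. Of the 9 monocyte markers 1 was found in at least 20% of the cells (Ccr2, in 93.0%) and 3 were at 0. Their sum was 851 to 1175 CPM in the cluster and 1005 to 1711 CPM in cortical surface dendritic cells. In border macrophages it was 2.96 to 44.7 CPM on the cortical surface and 98.6 to 375 CPM in the bone-associated libraries. Of the 9 microglia markers 6 were found in at least 20% of the cells, with a summed level of 1389 to 1437 CPM. That sum was 2235 to 2579 CPM in cortical surface border macrophages and 278 to 540 CPM in dendritic cells there.

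When the unnamed cluster was added to the cortical surface border macrophages, an alternative chosen after seeing the data, 0 of 7 members were called between the preparations by edgeR. Cd74 then differed by -0.49 (adjusted p = 0.741) and Ciita by 0.16 (adjusted p = 0.972), with cortical surface levels of Cd74 from 3362 to 15292 CPM.

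**Figure D3:**
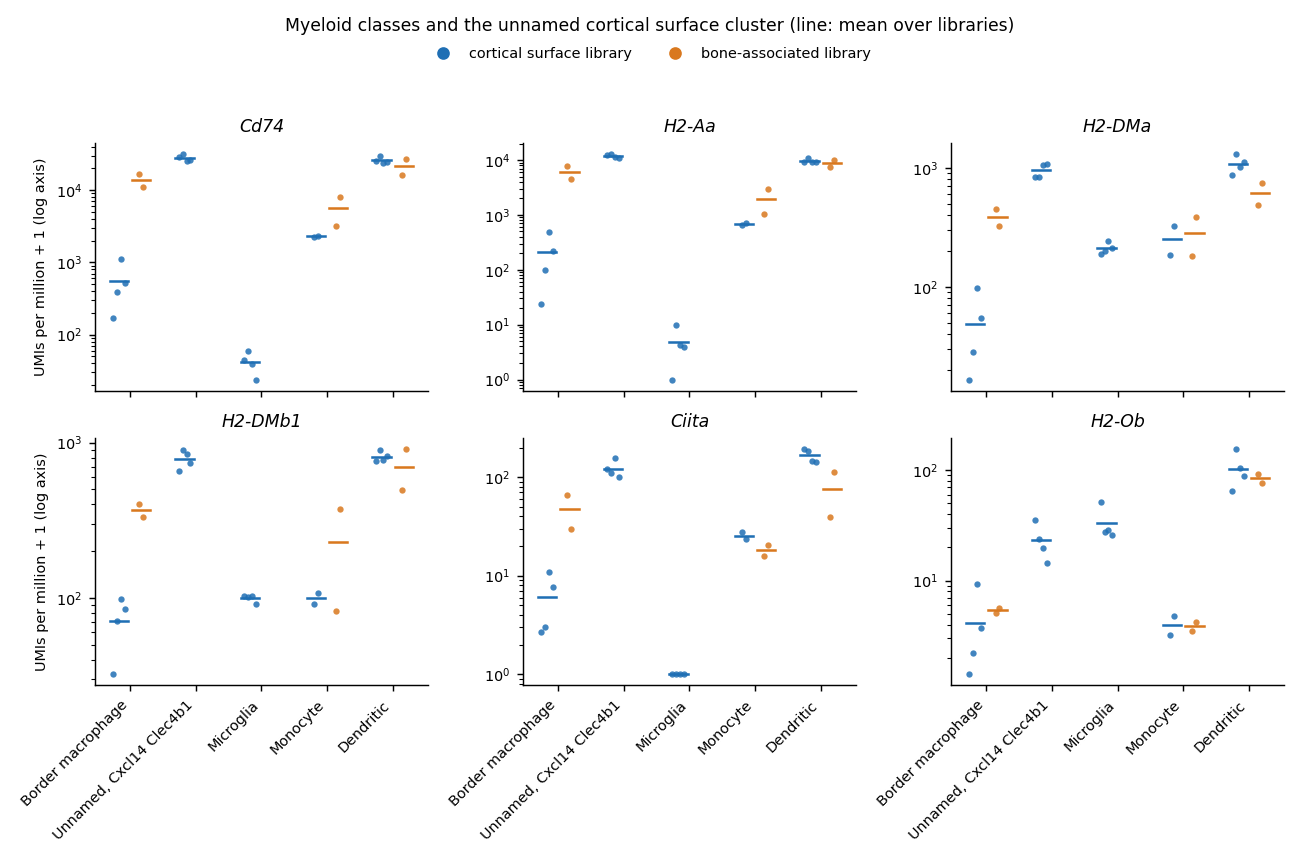
Levels of 6 members in 4 myeloid classes and in the unnamed cortical surface cluster led by Cxcl14 and Clec4b1, as CPM plus 1 on a log axis, with 1 point per library (blue, cortical surface; orange, bone-associated) and a line at the mean. The unnamed cluster overlapped dendritic cells for Cd74, H2-DMa and H2-DMb1, lay above them for H2-Aa and below dendritic cells for H2-Ob (13.6 to 34.1 against 64.0 to 154 CPM).

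The cortical surface border macrophages formed 3 clusters. The first, led by Ccl7, Ccl2 and Hmox1, came from libraries 1 and 2 and had 192 and 207 CPM of Cd74. The second, led by Adam33, Ms4a14 and Lyve1, had 62.3, 647, 1136 and 377 CPM. The third, led by Ccl8 and Chp2 and with a median of only 1874 UMIs per cell, had 4868, 1062 and 822 CPM in the 3 libraries with at least 10 cells.

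Border macrophages were also divided by Lyve1, the hyaluronan receptor commonly used to separate their subsets, and none of the 9 members entered this split. Cd74 was 169, 178, 760 and 341 CPM in Lyve1-positive and 164, 4027, 2223 and 1048 CPM in Lyve1-negative cells of cortical surface libraries 1 to 4, and 3103 against 13700 CPM in bone-associated library 2. Cells without a Lyve1 UMI were higher in 4 of these 5 libraries, and few of them held the RNA: the 197, 153 and 80 H2-Aa UMIs of libraries 2 to 4 lay in 4 of 23, 3 of 53 and 5 of 65 cells. In Lyve1-positive cells of libraries 3 and 4, 145 and 82 H2-Aa UMIs likewise lay in 6 of 82 and 6 of 105 cells. Over the cortical surface an H2-Aa UMI was found in 8.66% of positive and 8.48% of negative cells, and a Cd74 UMI in 35.5% and 28.5%. Thinned to 1500 UMIs, these shares were 2.86% and 9.26% for H2-Aa and 11.5% and 22.2% for Cd74. Thinning left out 19 of 543 positive and 57 of 165 negative cells as too shallow, so thinned and unthinned shares cover different cells. For Cd74 the fitted log2 fold change of -2.10 ± 0.73 did not pass (adjusted p = 0.498 in edgeR's test), nor did those of H2-Aa (-2.80 ± 0.94), H2-Ab1 (-2.91 ± 0.91), H2-Eb1 (-3.07 ± 1.06) and H2-DMb1 (-1.37 ± 0.63). H2-DMa was 12.2, 20.7, 76.0, 38.7 and 137 CPM in positive and 68.2, 145, 160, 102 and 381 CPM in negative cells of the same libraries.

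H2-DMa was the 1 member called lower in Lyve1-positive cells (-1.83 ± 0.22) of 6 tested, where 0.175% of 7413 genes were lower and 0.0809% higher. The median was -2.45 over the 6 members and 0.02 over all genes, and 0 of 39 pathway genes were called by edgeR (8 at an unadjusted p under 0.05). DESeq2 called 5 members, and none was called without the library as a block. Lyve1-negative cells were shallow on the cortical surface, with a median of 1612 to 4161 UMIs against 4979 to 13437 in positive cells, and the part of depth in the split was not tested.

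Microglia, the macrophages of the brain parenchyma, came only from the cortical surface and had 0, 9.06, 3.35 and 2.92 CPM of H2-Aa, 0, 4.53, 8.93 and 6.26 CPM of H2-Eb1 and no Ciita UMI in 726 cells, which allows up to 0.413% of cells with a UMI and sets no limit on cells that express the gene below detection. Border macrophages had at least 5.08-fold more Ciita, with microglia set to the floor of 3 counts over the group. Their level was itself near the floor, with 20 UMIs in 1.55% of the cells and 1.69 to 9.94 CPM. T or NK cells of libraries 1 to 4 had 0, 14.1, 0 and 1.33 CPM of Ciita, the 14.1 from 1 cell. Cd74 was 43.9, 58.0, 37.9 and 23.0 CPM in microglia and was found in 12.8% of cells (3.58% thinned to 1500 UMIs), against 5.69% of T or NK cells (1.37%). Median UMI counts per library were 5879 to 8449 in T or NK cells and 3844 to 8086 in microglia. T or NK cells had the higher median except in library 4, at 5879 against 6141. The H2-DM chains behaved otherwise. H2-DMa was 189, 200, 241 and 212 CPM in microglia and was found in 64.6% of cells (27.3% thinned), against 14.1% of T or NK cells (2.05%).

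H2-DMb1 was 101, 101, 102 and 90.1 CPM in microglia, and H2-Oa was 47.3, 47.1, 46.9 and 48.8 CPM, a spread of less than 2 CPM. H2-Ob was 50.6, 26.3, 27.9 and 25.0 CPM, highest in the library with the fewest microglia. An H2-Oa UMI was found in 23.1% of microglia (5.29% thinned) and in 3.42% of T or NK cells (1.37%). Microglia thus had H2-DMa, H2-Oa and H2-Ob transcripts above the levels of T or NK cells while H2-Aa, H2-Ab1 and H2-Eb1 were at 13.6 CPM or less. For H2-DMb1 the T or NK cells of the 6 libraries ran from 0 to 113 CPM and overlapped microglia. An H2-DMb1 UMI was found in 1.44% of those T or NK cells and in 42.6% of microglia.

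Set against microglia of the same libraries, border macrophages had more Cd74 (log2 fold change 4.01 ± 0.60, adjusted p = 0.0124 in edgeR's test) and less H2-DMa (-2.17 ± 0.46, adjusted p = 0.0307) and H2-Ob (-3.78 ± 0.50). H2-Oa had 2 UMIs in border macrophages, and its pooled level was 148-fold higher in microglia (95% counting interval 40.4 to 1227). H2-DMb1 did not pass (-0.27 ± 0.21, adjusted p = 0.291). H2-Aa, H2-Ab1, H2-Eb1 and Ciita were found in too few cells to be tested, and each was higher in border macrophages in 4 of 4 libraries. The share of all genes with such an order is not given.

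Of the 5 members tested, 1 was higher in border macrophages (8.62% of 7428 genes were) and 3 were lower (7.98% were), and the median was -2.17 over these 5 members and -0.01 over all genes. That median leaves out H2-Aa, H2-Ab1, H2-Eb1 and Ciita, which were higher in border macrophages in each library, and so does not describe the 9 members. Without cortical surface library 4 the calls of Cd74 and H2-DMa were lost (adjusted p 0.0598 and 0.084), and that of H2-DMa also without library 2 (0.131). With the unnamed cluster added to border macrophages, H2-DMa turned to 0.91 (adjusted p = 0.318), and 7 of 9 members were called. H2-Aa, H2-Ab1, H2-Eb1 and Ciita entered the test there only through the added cluster, in which they were high. Their direction was thus nearly fixed, and the share of all genes called in that setting is not given. Of 37 pathway genes tested, the transcription factor Irf4 (2.71 ± 0.50) and Cd63 (1.42 ± 0.09) were higher in border macrophages, and cathepsins D (Ctsd, -2.09 ± 0.07) and S (Ctss, -1.89 ± 0.08) were lower.

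Dendritic cells exceeded border macrophages in all 9 members in each of the 4 cortical surface libraries, but not in bone-associated library 1, where H2-Aa, H2-Eb1, Cd74 and Ciita were higher in border macrophages. The share of all genes with the same order in each cortical surface library is not given. On the cortical surface Cd74 was 23702 to 29950 CPM in dendritic cells and 169 to 1108 CPM in border macrophages, while in bone-associated library 1 it was 16265 against 16737 CPM and in library 2 27137 against 11121 CPM. Over the 6 libraries the called members were H2-DMa (log2 fold change 3.70 ± 1.11), H2-DMb1 (2.96 ± 0.68), Ciita (3.75 ± 1.10), H2-Ob (5.32 ± 0.40) and H2-Oa. H2-Oa had 3 UMIs in all border macrophages and was 342-fold higher in dendritic cells (95% counting interval 117 to 1661). Ciita, H2-Ob and H2-Oa passed the filter only through dendritic cells, with a UMI in 62.4%, 52.5% and 60.7% of cells against 4.25%, 1.46% and 0.36%. Their direction was thus nearly fixed by the filter. Cd74 (4.65 ± 1.52), H2-Aa (4.74 ± 1.73), H2-Ab1 (4.82 ± 1.68) and H2-Eb1 (4.93 ± 1.81) did not pass, with adjusted p from 0.0612 to 0.0848 in edgeR's test.

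These 5 of 9 members compare with 9.15% of 8124 genes called higher in dendritic cells and 11.3% called lower, and the median was 4.74 over the members and -0.04 over all genes. All 9 were called by DESeq2, and all 9 also without bone-associated library 1. Leaving out any 1 of the other 5 libraries lowered the count to 2 or 3. Of 42 pathway genes tested, 5 were higher and 7 lower in dendritic cells, the latter led by the lysosomal proteases cathepsin D (Ctsd, -3.98 ± 0.23), legumain (Lgmn, -3.88 ± 0.20) and cathepsin B (Ctsb, -3.29 ± 0.15) and by Cd63 (-3.74 ± 0.88), with H2-DMb2 the highest (7.76 ± 0.49). Spib had no UMI in border macrophages.

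B cells differed from border macrophages in H2-Ob (6.99 ± 0.39) and in H2-Oa, which was 417-fold higher (95% counting interval 142 to 2028). Both passed the filter only through B cells, with a UMI in 66.1% and 47.4% of cells against 1.46% and 0.36%. Their direction was thus nearly fixed by the filter. The other 7 members were not called. For H2-Aa the fold change was 2.81 ± 1.70 (adjusted p = 0.225 in edgeR's test), for Cd74 3.37 ± 1.35 (0.088), for H2-Ab1 2.77 ± 1.62 (0.21), for H2-Eb1 2.79 ± 1.75 (0.24), for H2-DMa 1.98 ± 0.91 (0.127), for Ciita 2.66 ± 1.13 (0.103) and for H2-DMb1 -1.22 ± 0.59 (0.134). In cortical surface libraries B cells were above border macrophages for H2-Aa in 4 of 4 libraries, and in the bone-associated libraries border macrophages were above B cells in both.

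The 2 members called higher stand beside 8.13% of 7291 genes called higher and 22.9% called lower, with a median of 2.79 over the members and -0.20 over all genes. DESeq2 called 8 members, and 4 were called without bone-associated library 1. Among 42 pathway genes 4 were higher in B cells, including H2-DMb2 (8.77 ± 0.37), and 12 were lower, led by Cd63 (-7.80 ± 0.30), Ctsb (-5.86 ± 0.23) and Ctsd (-5.32 ± 0.31).

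Whether the gap between classes depended on the preparation was tested as an interaction, added after seeing the data. The difference of dendritic cells from border macrophages was larger on the cortical surface by 2.83 ± 0.43 on the log2 scale for H2-DMb1 (adjusted p = 0.00876 in edgeR's test), and this was the 1 member of 9 called (2.08% of all genes were called higher). For B cells the same difference was 2.29 ± 0.35 for H2-DMb1 (adjusted p = 1.7e-08) and 4.76 ± 0.58 for Ciita (adjusted p = 2.4e-10), 2 of 9 members (2.39% of all genes). Cd74 gave 5.35 ± 0.99 for dendritic and 4.85 ± 1.00 for B cells, with adjusted p of 0.0984 and 0.0957. With the unnamed cluster added to border macrophages none of the 9 was called in either, and Cd74 gave 1.06 and 0.60, with 0 members at an unadjusted p under 0.05.

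**Figure D4:**
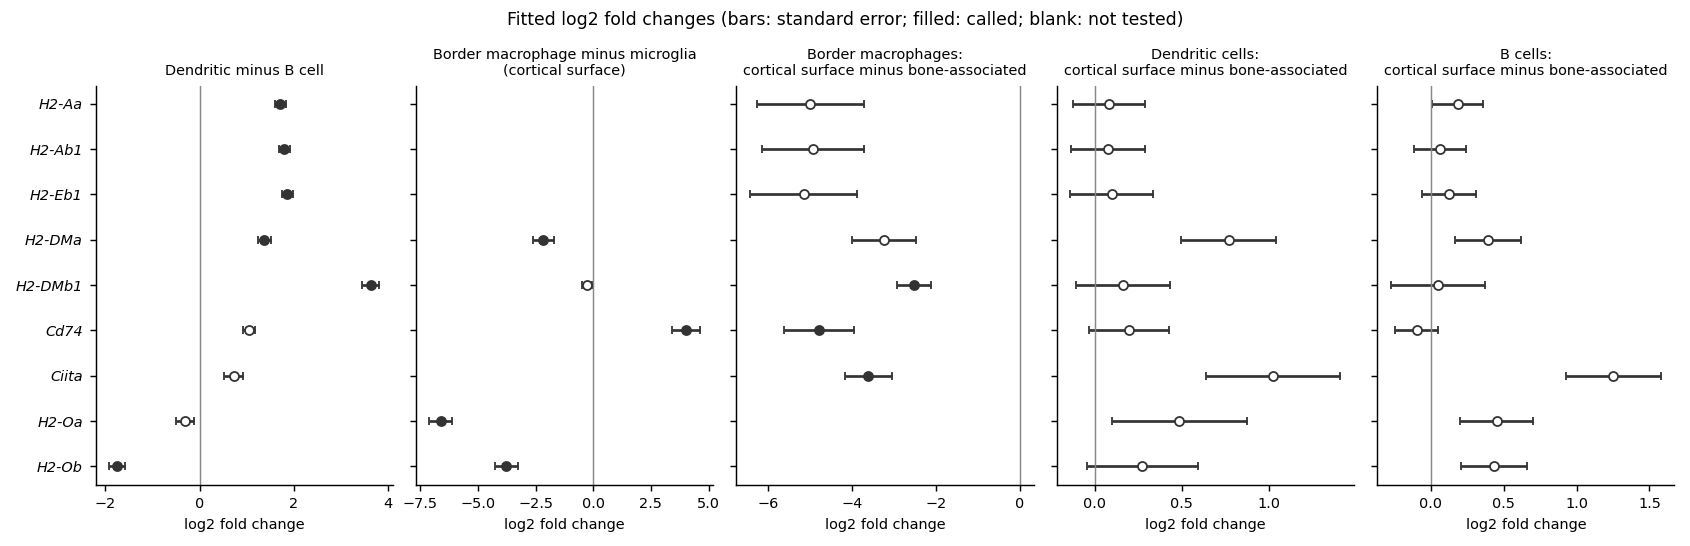
Fitted log2 fold changes (points) with standard errors (bars) of the 9 members in 5 comparisons, each panel with its own horizontal axis; filled points were called and blank rows were not tested. Differences between preparations lay between -5.15 and -2.53 in border macrophages, while those in dendritic and B cells lay between -0.10 and 1.25.

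Dendritic cells of the preparations did not differ in any of the 9 members by the call rule. Cd74 differed by 0.20 ± 0.23, H2-Aa by 0.08 ± 0.21 and H2-DMa by 0.77 ± 0.27, and Ciita, with 143 to 192 CPM on the cortical surface and 38.4 and 113 CPM in the bone-associated libraries, by 1.02 ± 0.39 (adjusted p = 0.167 in edgeR's test). The other 5 members lay between 0.08 and 0.49. The 0 of 9 compares with 1.21% of 7934 genes higher and 3.05% lower, and medians of 0.20 and 0.00. At an unadjusted p under 0.05, edgeR had 2 members, and DESeq2 also called 0. Without bone-associated library 2, Ciita was called (2.17). Of 42 pathway genes, the costimulatory receptor Cd40 was lower on the cortical surface (-3.44 ± 0.49) and the ubiquitin ligase March1, which removes class II molecules from the surface, was higher (1.83 ± 0.31).

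B cells of the preparations were likewise called in 0 of 9 members, beside 1.32% of 4837 genes higher and 3.02% lower and medians of 0.18 and 0.01. Cd74 differed by -0.10 ± 0.15 and H2-Aa by 0.18 ± 0.17, and the other 6 members besides Ciita lay between 0.05 and 0.45. Ciita was higher on the cortical surface by 1.25 ± 0.33 (adjusted p = 0.0135 in edgeR's test), just below the fold threshold, and was the 1 member at an unadjusted p under 0.05. DESeq2 called 0. Without cortical surface library 4 or bone-associated library 2 Ciita passed (1.5 and 1.49). Among 38 pathway genes Cd86 was lower on the cortical surface (-2.36 ± 0.40) and March1 higher (2.14 ± 0.32).

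In border macrophages, where 3 of the 7 members tested were called lower on the cortical surface, 6 of 41 pathway genes were lower there, beside 4.54% of all genes, and none was higher. They were the inhibitory ligand Cd274 (-3.81 ± 0.43), Cd40 (-3.26 ± 0.31), the interferon regulatory factor Irf1 (-2.19 ± 0.39), the peptide transporter chain Tap1 (-1.91 ± 0.27), Nlrc5, the class I counterpart of Ciita (-1.62 ± 0.46), and the class I heavy chain H2-K1 (-1.31 ± 0.22). By role they were 3 of 9 class I genes, 2 of 5 costimulatory genes and 1 of 16 genes of transcription and interferon signalling.

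Monocytes had intermediate levels. In cortical surface libraries 3 and 4 and bone-associated libraries 1 and 2, H2-Aa was 653, 721, 1032 and 2931 CPM and Ciita 26.5, 22.4, 14.8 and 19.6 CPM. Within them a cluster led by Chil3 in the bone-associated libraries had 2466 ± 1437 CPM of H2-Aa (n = 2), and a cluster with Cd300e and Treml4, genes of patrolling monocytes, had 40.6 ± 45.3 CPM. On the cortical surface the Cd300e and Treml4 cluster had 290 ± 283 CPM and the other 934 ± 180 CPM. Group 2 innate lymphoid cells had H2-Oa at 24.1 and 89.1 CPM on the cortical surface and 74.5 and 53.7 CPM in the bone-associated libraries, with H2-Ob at 0 in all 4.

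Stromal classes had low levels that in several libraries came from few cells. Endothelial cells, which line vessels, had Cd74 at 849, 7.45, 5.55 and 257 CPM on the cortical surface and 181 and 187 CPM in the bone-associated libraries, and mesenchymal cells at 13.9, 29.8, 822 and 51.5 CPM and then 9.35 and 31.8 CPM. The highest values came from 1 or 2 cells. In cortical surface library 1, 2 of 73 endothelial cells held 98.6% of the UMIs of H2-Aa, H2-Ab1, H2-Eb1 and Cd74 in their class, and in library 3, 1 of 34 mesenchymal cells held 98.1%.

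Cells with at least 10 UMIs over these 4 genes were 3 of 538 endothelial cells on the cortical surface, and all 3 also held at least 3 UMIs of 8 immune genes such as Ptprc, Tyrobp, C1qa and Cd79a. In the bone-associated libraries they were 17 of 451, of which 7 held such immune UMIs, and in library 2 the 13 cells of this kind held 70.4% of the class's UMIs. Mesenchymal cells had 2 of 284 and 4 of 285, pericytes 1 of 495 and 0 of 187, and T or NK cells 2 of 439 and 2 of 606. In the bone-associated libraries some stromal levels lay above T or NK cells. H2-DMb1 was 22.4 and 29.7 CPM in mesenchymal cells and was found in 30.5% of them (3.55% thinned to 1500 UMIs), against 0.89 and 2.01 CPM and 1.16% (0.17%) in T or NK cells, with median UMI counts of 17449 and 14594.5 against 6086 and 6145. Cd74 was found in 20.2% of endothelial cells (7.17% thinned) and in 10.1% of T or NK cells (2.15%). In bone-associated library 2 a UMI of these 4 alpha, beta and invariant chain genes was found in 46.3% of endothelial, 55.1% of mesenchymal and 30.6% of T or NK cells.

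Against T or NK cells, 0 of the 3 members tested in endothelial cells were called (22.4% of 7907 genes were higher and 11.7% lower), and 0 of the 6 tested in mesenchymal cells (25.3% of 9426 genes higher and 13.7% lower). In endothelial cells Cd74 differed by 1.73 ± 2.01, H2-Ab1 by 0.86 ± 1.73 and H2-DMa by -2.10 ± 0.89, and in mesenchymal cells the 6 values ran from -1.60 ± 0.69 (H2-DMa) to 1.17 ± 1.63 (H2-DMb1). T or NK cells themselves held an H2-DMa UMI in 10.2% of cells, endothelial cells in 3.34% and mesenchymal cells in 8.79%. The negative H2-DMa values are thus not levels below an empty background. Medians were 0.86 over the members and 0.16 over all genes for endothelial, and -0.37 and 0.11 for mesenchymal cells. At an unadjusted p under 0.05, edgeR had 0 and 1 members, and DESeq2 called 1 and 0. Without cortical surface library 2, whose T or NK cells were high, Cd74 (2.75) and H2-Ab1 (2.05) were called higher in endothelial cells and H2-DMb1 (3.23) in mesenchymal cells, and without library 1 H2-DMa was called lower in endothelial cells (-2.77). Of 35 pathway genes, 6 were higher and 10 lower in endothelial cells, and 6 higher and 13 lower in mesenchymal cells. Cathepsin H (Ctsh) was higher in both, by 6.68 ± 0.30 and 6.92 ± 0.39, and cathepsin L (Ctsl) by 3.47 ± 0.24 and 5.35 ± 0.41, and the interferon regulatory factor Irf8 was lower in both, at -3.49 ± 0.77 and -3.96 ± 1.3.

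Between preparations, 0 of 4 members tested in endothelial cells and 0 of 6 in mesenchymal cells were called, beside 1.81% of genes higher and 4.07% lower, and 5.74% higher and 7.78% lower. Medians were 0.68 over the members and 0.03 over all genes, and 1.64 and 0.01. At an unadjusted p under 0.05, edgeR had 0 and 1 members, and DESeq2 called 0 in both. In endothelial cells the values were 0.70 ± 1.62 for H2-Aa, 0.66 ± 1.65 for H2-Ab1, 1.08 ± 1.61 for H2-Eb1 and 0.56 ± 1.83 for Cd74. In mesenchymal cells they were 1.73 ± 2.16 for H2-Aa, 1.56 ± 2.07 for H2-Ab1, 2.82 ± 2.43 for H2-Eb1, 3.28 ± 2.32 for Cd74, -0.63 ± 0.67 for H2-DMa and -1.73 ± 0.68 for H2-DMb1, and 1 cell of library 3 held 98.1% of the alpha, beta and invariant chain UMIs there. The direction in mesenchymal cells was not stable. H2-Aa and H2-Ab1 turned to -1.59 and -1.50 without barcodes holding at least 3 UMIs over C1qa, C1qb, Lyz2 and Cd79a. There 3 members were called. With a replicate block H2-Aa and H2-Ab1 turned to -1.84 and -1.41, and 4 members were called. Without library 3 or library 4, H2-DMb1 was called lower in cortical surface mesenchymal cells (-2.13 and -2.09), and without library 3 H2-Ab1 too (-1.44). Irf1 was lower on the cortical surface in endothelial (-2.32 ± 0.20) and mesenchymal cells (-2.00 ± 0.33), as was Socs1, an inhibitor of interferon signalling (-2.09 ± 0.33 and -1.95 ± 0.40).

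Across the 70 sums of 16 classes by library, each member was compared with the mean of H2-Aa, H2-Ab1, H2-Eb1 and Cd74 on the log2(CPM + 10) scale. Each of these 4 genes was left out of the mean it was compared with. These correlations are descriptions, and the sums share libraries and depth. Pearson's r was 0.984 to 0.994 for those 4 genes themselves, 0.894 for Ciita, 0.854 for H2-DMa, 0.833 for H2-DMb1, 0.678 for H2-Ob and 0.608 for H2-Oa. The genes outside the class II chains with the most similar pattern were Rnase6 (0.867), Kmo (0.852), Ms4a4c (0.794), Napsa (0.787), Pkib (0.776), Gm15987 (0.775), Wdfy4 (0.768), Slamf9 (0.755), Scimp (0.750) and Slamf7 (0.745). The mean of H2-Oa and H2-Ob was most like Siglecg (0.897), an inhibitory receptor of B cells, Bcl11a (0.867), Map4k1 (0.85), Ero1lb (0.818) and Slc9a7 (0.814).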

How the data were processed

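The deposited files hold the UMI counts that the authors obtained from Cell Ranger (mm10) for each gene and barcode of 6 libraries, unnormalized (the submitters' notes name Cell Ranger 3 and the file headers 6.1.2). The members, gene lists and comparisons were chosen with earlier results of these data known. Kept barcodes had 500 genes or more and no more than 10% mitochondrial UMIs, and doublets were removed at 0.8% per 1000 cells. Free RNA was left uncorrected. The preparations were clustered separately from 2000 variable genes, 30 principal components and 15 neighbours (Leiden, resolution 1.5), leaving out class II, mitochondrial and hemoglobin genes. The clusters were rebuilt here, without the authors' annotation or Harmony. A cluster was named when at least 3 markers of a class led it, the most of any class, and its 10 leading genes did not favour another class.

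Counts were summed per library and class (at least 10 cells). Genes with a UMI in over 10% of the cells of either class entered edgeR's quasi-likelihood test (TMM factors), blocking on library within libraries, over all genes tested. The 13 comparisons share libraries. Comparisons of B cells, dendritic cells and border macrophages share sums. Shares of cells have exact (Clopper-Pearson) 95% intervals, and a count of 0 was given a floor of 3 counts. The upper limits given for shares with no UMI also use this floor of 3 and not the exact interval. The script was tested on simulated counts. All 9 members were counted in every comparison where they could be tested, up to 6 pathway genes with the largest called changes were eligible to be named, and 10 and 5 genes were named for likeness. Motifs were matched in RefSeq promoters, and gene coordinates come from GENCODE for GRCm38. Alternatives were DESeq2, upper quartile normalization, filterByExpr, other cell filters, doublet rate and resolution, thinning to 1500 UMIs, hemoglobin genes left out, the block, and each library left out. The labels do not say whether same-numbered libraries of the preparations share animals. Software versions were R 4.3.3 with edgeR 4.0.16, DESeq2 1.42.0 and limma 3.58.1, and Python 3.11.15 with leidenalg 0.10.2, igraph 0.11.9, scikit-learn 1.9.0, scipy 1.17.1, numpy 2.4.6, pandas 2.3.3 and matplotlib 3.10.9.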

Additional observations from a re-analysis of the deposited data

Results flagged for a closer look

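Among 40 groups of 4 cortical surface libraries checked, a few held a library far from the others, and chance gives about 1 such group in 20. In T or NK cells, library 2 stood apart for Cd74 (2519 CPM, next 16.6), H2-Ab1 (771 CPM, next 7.98) and H2-DMa (116 CPM, next 26.4). In mesenchymal cells, library 3 stood apart for Cd74 (822 CPM, next 51.5), H2-Eb1 (423 CPM, next 42.9) and H2-Ab1 (252 CPM, next 8.69). In both classes a single cell held nearly all UMIs of the alpha, beta and invariant chains, as given above. In microglia, library 1 stood apart for H2-Ob (50.6 CPM from 15 UMIs, next 27.9) and for H2-Ab1 (6.75 CPM from 2 UMIs, next 13.4), and library 4 for H2-DMb1 (90.1 CPM, next 101).

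A further 3 values differed between the preparations by a test of the difference itself. The gap between dendritic cells and border macrophages was larger on the cortical surface for H2-DMb1 by 2.83 on the log2 scale. The gap between B cells and border macrophages was larger there for H2-DMb1 by 2.29 and for Ciita by 4.76. All were lost when the unnamed cluster led by Cxcl14 and Clec4b1 was counted with the border macrophages.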

How the results depend on the processing

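Each library was left out in turn, and B cells against B precursors could not be fitted that way because 1 library remained. The number of members called then ran from 2 to 4 for border macrophages against microglia (4 with all libraries), 2 to 9 for dendritic cells against border macrophages (5), 2 to 4 for B cells against border macrophages (2), 5 to 6 for dendritic against B cells (6), 1 to 2 for the Lyve1 split (1), 0 to 2 for endothelial against T or NK cells (0) and 0 to 1 for mesenchymal against T or NK cells (0). Between preparations it ran from 1 to 5 for border macrophages (3), 0 to 1 for dendritic cells (0), 0 to 1 for B cells (0), 0 to 0 for endothelial cells (0) and 0 to 2 for mesenchymal cells (0), and H2-Ab1 in mesenchymal cells ran from -1.44 (without cortical surface library 3) to 2.24.

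With DESeq2, 9 members were called for dendritic cells and 8 for B cells against border macrophages, 7 for border macrophages between preparations, 5 for the Lyve1 split and 1 for endothelial against T or NK cells. With filterByExpr 7 were called for border macrophages against microglia, 1 for endothelial and 1 for mesenchymal against T or NK cells. With cells thinned to 1500 UMIs 2 were called for border macrophages against microglia, 5 for B cells against precursors and 5 for border macrophages between preparations. Resolution 1 gave 3 for dendritic cells against border macrophages, at least 1000 genes per cell gave 2 for the Lyve1 split, and no library block gave 0 for that split and 1 each for endothelial and mesenchymal against T or NK cells. The doubled doublet rate gave 1 for endothelial against T or NK cells and 1 for mesenchymal cells between preparations. Upper quartile normalization and leaving out hemoglobin genes kept every count within 1.5 times.

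In the labels, libraries with the same number share only that number (2 pairs, correlations of -0.011 to 0.195), and shared animals are neither stated nor excluded. With a replicate block B cells had 1 member called and mesenchymal cells 4, where H2-Aa turned to -1.84 and H2-Ab1 to -1.41, and the block changed no other count of members. Chosen after seeing the data, leaving out barcodes with at least 3 UMIs over C1qa, C1qb, Lyz2 and Cd79a gave 1 for endothelial and 1 for mesenchymal against T or NK cells and 3 for mesenchymal cells between preparations, with H2-Aa at -1.59 and H2-Ab1 at -1.50. Adding the unnamed cluster to border macrophages, also chosen after seeing the data, gave 7 against microglia (H2-DMa 0.91), 8 for dendritic cells, 0 between preparations (Ciita 0.16) and 0 for both interactions. The 7 include members that entered the test only through that cluster. The cause of these shifts was not tested.

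H2-O per 100 H2-DM UMIs moved with thinning to 9.27 and 12.3 in dendritic cells (cortical surface and bone-associated) and 1.03 in bone-associated border macrophages, and with H2-DMb2 counted to 67.3 and 59.4 in B cells. Without barcodes holding at least 3 UMIs over C1qa, C1qb, Lyz2 and Cd79a, 18 cortical surface dendritic cells (library 4) were left, with 26.2. The 21 and 38 bone-associated dendritic cells left had 26.9 and 18.6. Leaving out a library gave 119 to 130 and 98.1 to 132 in B cells, 12 to 14.2 and 13.1 to 16.2 in dendritic cells, 1.52 to 2.93 and 0.71 to 0.95 in border macrophages and 23.6 to 27.5 in microglia. Cd74 moved with thinning to 14868 CPM in bone-associated B cells, and without a library ran from 24316 to 26398 and 16265 to 27137 CPM in dendritic cells, 11351 to 13372 in cortical surface B cells, 354 to 667 and 11121 to 16737 in border macrophages and 34.9 to 46.6 in microglia.

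Counts over all genes fell with thinning in each comparison, from 1233 to 638 for border macrophages against microglia, 1662 to 663, 2265 to 1004 and 1726 to 618 for the next 3, 581 to 108 for B cells against precursors, 19 to 12 for the Lyve1 split, 2698 to 1221 and 3678 to 1338 against T or NK cells and, between preparations, 482 to 140, 338 to 150, 210 to 138, 454 to 239 and 1298 to 556. DESeq2 called 145 genes for precursors, 8 for the Lyve1 split and 85 for B cells between preparations. The Lyve1 split had 1 without the block and 7 without bone-associated library 2. Border macrophages between preparations had 280 with the unnamed cluster. Dendritic cells there had 187 at resolution 1, 146 with the replicate block and 216 and 169 without cortical surface libraries 3 and 4, and B cells 41 with the block and 130 and 94 without them. Class sizes, 12 precursors and 17 bone-associated border macrophages at the smallest, and 2 bone-associated libraries limit these tests.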
